A study of Mus musculus with 6 samples.

Results

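Scavenger receptors, the TREM2 receptor with its adaptor, and receptors for dying cells were examined in RAW264.7, a mouse line with macrophage character that was derived from a tumour caused by the Abelson virus. The genes were chosen by name: Msr1, Marco, Scarb1, Cd68 and Mrc1 (scavenger and endocytic receptors), Trem2 and Tyrobp (receptor and adaptor), and Mertk, Axl and Gas6 (receptors and ligand for dying cells). All 10 were found among the 25124 gene symbols of the deposited table, and 6 of the 10 passed the filter on low values, which asked for at least 1 TPM (a read number scaled by transcript length and library size) in at least 3 of 6 libraries. Of all symbols, 11257 passed it. RNA came from 3 libraries labelled as E4BP4 knockout and 3 labelled as control, all from untreated cells in high-glucose medium with serum. E4BP4, encoded by Nfil3, is a bZIP transcription factor that mostly represses genes through D-box elements. The sources used here do not say how E4BP4 was disrupted, if the cells are 1 clone or a mixture, or if replicates were grown apart, so the p-values reflect only how far these 6 libraries scatter, and that scatter may be technical.

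Nfil3 itself measured 105, 104 and 99.8 TPM in the knockout-labelled libraries and 29.5, 29.9 and 31.0 TPM in control libraries, a ratio of 3.41. The targeted transcript was thus higher under the knockout label, and a total over the gene does not reveal a small change inside its coding exon, so all directions below depend on the labels being right. Reads recovered from the TPM values numbered 18.4 to 19.9 M (mega) under the knockout label and 15.6 to 18.1 M in control libraries. All 12 macrophage markers examined reached the filter, with summed levels of 4656 to 4869 TPM under the knockout label and 3803 to 4171 TPM in control libraries. Lyz2 alone, at means of 2218 and 1069 TPM under the knockout and control labels, turned that sum: without it the other 11 summed to 2490 to 2604 TPM under the knockout label and 2786 to 3011 TPM in control libraries. Of the 12, 6 were called lower and 3 higher, beside 23.4% called lower and 26.7% higher over all tested genes. Their median log2 fold change was −0.11, against 0.02 over all tested genes. The receptor gene Csf1r had a log2 fold change of −0.64 (limma adjusted p = 2.81e-06). No lymphocyte marker exceeded 0.303 TPM in any library (9 genes, with Nkg7 and Klrb1c among those listed at 0), and no fibroblast, epithelial or endothelial marker exceeded 0.922 TPM (11 genes, with Krt8 listed at 0). The 7 dendritic cell markers summed to 3.15 to 3.27 TPM under the knockout label and 1.74 to 2.09 TPM in control libraries, with Ccr7 listed at 0. Without Itgax, the other 6 summed to 1.46 to 1.56 and 1.42 to 1.68 TPM under the knockout and control labels. Adgre1 was the least abundant of the 12 macrophage markers, at means of 1.53 and 2.73 TPM under the knockout and control labels. Its log2 fold change was −0.55 (limma adjusted p = 0.00414). Lyz2, Itgax, Csf1r and Adgre1 were singled out after their values were seen. The part of these markers in the results was not tested.

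Macrophages take up modified lipoproteins, microbes and cell debris through scavenger receptors, which are structurally unrelated proteins grouped by their broad binding of polyanionic ligands. TREM2 is an immunoglobulin-type receptor for lipids and lipoproteins that has no signalling motif of its own and depends on the adaptor DAP12, the product of Tyrobp, whose phosphorylated ITAM recruits the kinase Syk. MERTK and AXL are receptor tyrosine kinases that reach phosphatidylserine on dying cells through bridging ligands, GAS6 for both and protein S for MERTK. Uptake of dying cells through these receptors and by other routes is called efferocytosis.

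Msr1, Trem2 and Cd68 were lower in the knockout-labelled libraries, whereas Scarb1, Tyrobp and Mertk did not pass the test. In limma, 3 of the 6 tested genes were called lower and 0 higher at an adjusted p under 0.05. Over all tested genes, 50.1% were called in either direction and 23.4% lower. The share of these genes called was thus that of the background. The genes were chosen with earlier results of these data known, so their count is not a test. With limma-voom, 4 were called lower, with Tyrobp added, and 1 higher, Mertk, beside 3145 lower and 3024 higher of 11257 genes. The same genes had an unadjusted p under 0.05 in limma, where no share of all genes was counted. The median log2 fold change, given throughout on log2(TPM + 1) as knockout minus control, was −0.23 over the 6 genes and 0.02 over all genes tested. Libraries of the groups did not overlap for 5 of the 6 genes, where 58.5% of all tested genes showed no overlap (31.3% with every knockout-labelled library higher and 27.2% with every one lower). The coefficient of variation within a group was 1.39% to 8.20% for the 6 genes. In these bulk libraries, fewer cells making a transcript and less transcript per cell cannot be told apart.

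**Figure D1:**
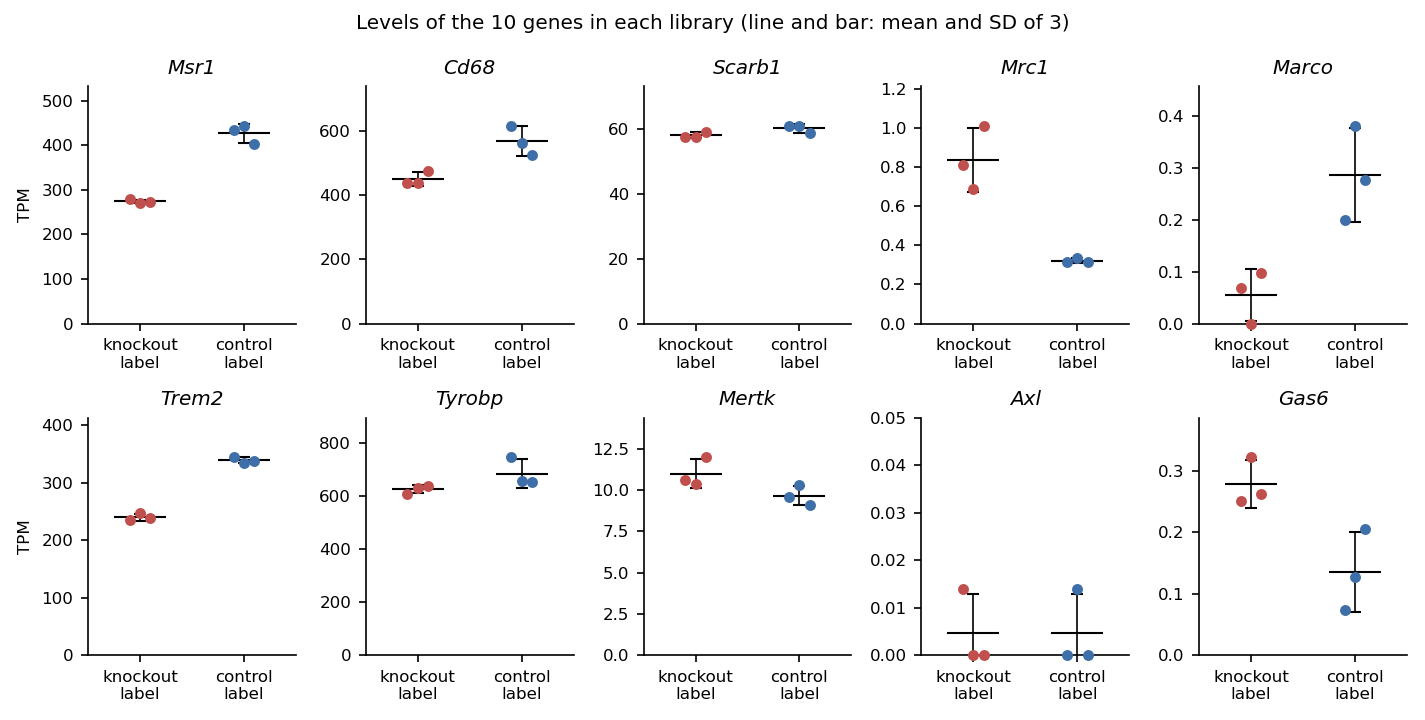
TPM of each of the 10 genes in each library (points), on axes that start at 0 and differ between panels, with libraries labelled knockout left of controls; the line and bar give the mean and SD of 3 libraries. Msr1, Cd68 and Trem2 sit lower in all 3 libraries labelled knockout than in any control, and Mrc1, Marco, Axl and Gas6 are near or below 1 TPM throughout.

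The same 4 genes led the order of levels in both groups. Tyrobp was the most abundant, followed by Cd68, Msr1 and Trem2, at ranks 104, 129, 185 and 244 of the 25124 symbols by control mean TPM. These 4 neighbours in the order did not overlap in TPM in either group. Scarb1 stood at rank 1824 and Mertk at rank 7260. Mrc1, Marco, Gas6 and Axl were the lowest, and Marco overlapped both Mrc1 and Gas6 in control libraries.

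Msr1 encodes the class A scavenger receptor that binds oxidised and acetylated low-density lipoprotein, and its product is known in splice forms with and without a cysteine-rich domain. It lies on the minus strand of chromosome 8 (39581700 to 39642678, mm10). Msr1 measured 278, 271 and 273 TPM in the knockout-labelled libraries and 435, 444 and 403 TPM in control libraries. All 3 knockout-labelled values lay far below the lowest control, and they were close to one another. The means were 274 ± 3.82 and 427 ± 21.4 TPM (SD, n = 3 each), with a log2 fold change of −0.64 (SE 0.0418, 95% interval −0.73 to −0.54, limma adjusted p = 2.43e-06). Msr1 had the 414th lowest fold change of 11257 tested genes.

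The authors' tables used different Msr1 transcripts, and each was lower under the knockout label. The TPM values belong to NM_001113326, of 1455 bases, whose GENCODE M21 model has 10 exons. The authors' table of stabilised log2 values uses NM_031195, of 3626 bases, whose model has 9 exons and a 3′ end at 39603454. On that log2 scale the second transcript measured 13.3 in each of the libraries labelled knockout and 13.9, 13.9 and 13.8 in control libraries. The authors' deposited table gave it a log2 fold change of −0.63 (adjusted p = 4.37e-60). The models share exons, so the splice forms cannot be told apart here.

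Cd68 encodes macrosialin, a heavily glycosylated protein of late endosomes and lysosomes that is widely used as a macrophage marker. It lies on the minus strand of chromosome 11 (69664213 to 69666170, mm10), in a transcript of 6 exons. Cd68 measured 437, 439 and 474 TPM in the knockout-labelled libraries and 617, 562 and 525 TPM in control libraries. The groups did not overlap, although the highest knockout-labelled value and the lowest control were closer than for Msr1. The means were 450 ± 21.1 and 568 ± 46.6 TPM (SD, n = 3 each), a log2 fold change of −0.33 (SE 0.0593, 95% interval −0.47 to −0.20, limma adjusted p = 0.00127).

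Scarb1 encodes SR-BI, the high-density lipoprotein receptor that exchanges cholesterol esters with cells. It measured 57.4, 57.5 and 59.0 TPM in the knockout-labelled libraries and 60.9, 61.0 and 58.6 TPM in control libraries. The groups overlapped, and Scarb1 did not pass the test (log2 fold change −0.05, 95% interval −0.14 to 0.03, limma adjusted p = 0.259).

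Trem2 was lower in every knockout-labelled library than in any control. It lies on the plus strand of chromosome 17 (48346401 to 48352276, mm10), in a transcript of 5 exons (NM_031254). Trem2 measured 235, 247 and 238 TPM in the knockout-labelled libraries and 345, 335 and 338 TPM in control libraries. The spread within each group was small beside the distance between them. The means were 240 ± 6.28 and 339 ± 4.92 TPM (SD, n = 3 each), a log2 fold change of −0.50 (SE 0.0346, 95% interval −0.58 to −0.42, limma adjusted p = 3.46e-06). The authors' deposited table, which lists another Trem2 transcript (NM_001272078), gave −0.51 (adjusted p = 1.81e-29).

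**Figure D2:**
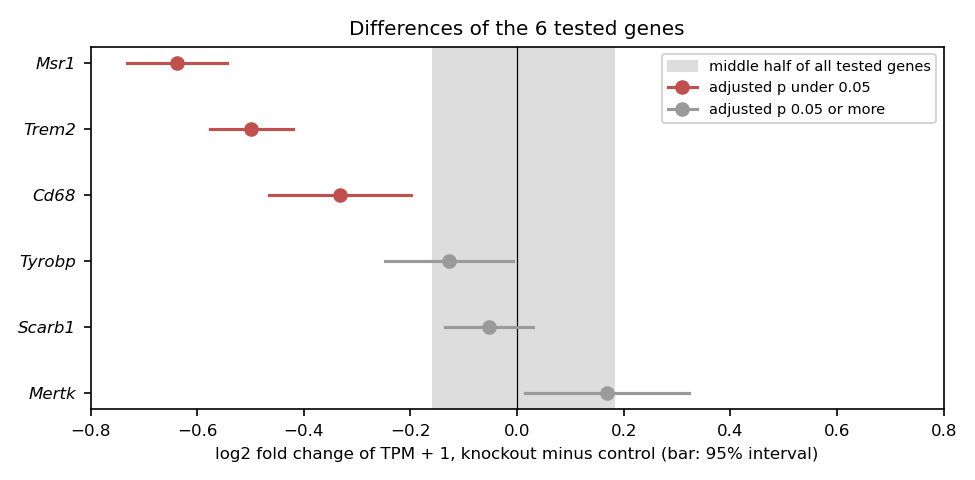
Log2 fold change of TPM + 1, knockout minus control, for the 6 tested genes (points) with 95% intervals from limma (bars); the grey band is the interquartile range of all 11257 tested genes. Msr1, Trem2 and Cd68, in red, passed at an adjusted p under 0.05, and their intervals lie below the band.

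Of the 3 genes that fell, RefSeq promoter sequences (GRCm38.p6) were at hand for Trem2 and Cd68. They are shown because both genes were lower in the same libraries, where 23.4% of all tested genes were called lower. The sequences are the 250 bases upstream of each gene's start, 5′ to 3′ on the gene's strand. Capitals mark matches to TGANTCA, which is looser than the AP-1 motif, TGA then C or G then TCA. The Trem2 stretch is chr17:48346151-48346400 on the plus strand and the Cd68 stretch is chr11:69666171-69666420 on the minus strand.
Trem2: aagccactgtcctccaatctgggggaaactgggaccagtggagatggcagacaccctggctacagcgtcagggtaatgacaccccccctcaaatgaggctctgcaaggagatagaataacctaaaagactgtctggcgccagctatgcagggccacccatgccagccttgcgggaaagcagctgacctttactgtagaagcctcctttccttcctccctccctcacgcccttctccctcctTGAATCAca
Cd68: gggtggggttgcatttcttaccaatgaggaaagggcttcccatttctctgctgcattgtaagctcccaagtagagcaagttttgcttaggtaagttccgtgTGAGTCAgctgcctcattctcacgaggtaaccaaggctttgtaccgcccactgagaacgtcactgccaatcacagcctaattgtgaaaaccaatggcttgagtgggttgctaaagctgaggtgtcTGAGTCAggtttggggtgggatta
The Trem2 match, TGAATCA, lies 9 to 3 bases before the start and has A at its centre, so it is outside the AP-1 motif. Cd68 has TGAGTCA at 149 to 143 bases and again at 24 to 18 bases before its start. Searched on both strands, TGANTCA occurred in 6.75% of the 32851 promoter stretches of this length. Among the 7 of the 10 genes that matched the table (Axl, Cd68, Gas6, Marco, Mertk, Mrc1 and Trem2), TGANTCA occurred in Trem2 and Cd68 only. The share of stretches with the AP-1 motif itself was not counted. The D-box letters TTATGTAA and TTACGTAA, the element E4BP4 is known to bind, occurred in none of the 7 and in 0.819% and 0.113% of all stretches, and the PU.1 letters GAGGAAGT occurred in none of the 7 and in 2.44% of all. These are letter matches and were not tested as binding sites.

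Tyrobp, the adaptor gene, differed less than Trem2. It measured 608, 631 and 636 TPM in the knockout-labelled libraries and 746, 656 and 650 TPM in control libraries. The groups did not overlap, but control replicate 1 stood well above the other controls, and the nearest values of the groups were 636 and 650 TPM. Tyrobp did not pass the test (log2 fold change −0.13, 95% interval −0.25 to −0.01, limma adjusted p = 0.0733). Without control replicate 1 the log2 fold change was −0.06 (adjusted p = 0.144), and with limma-voom on recovered reads it was −0.15 and passed (adjusted p = 0.0148). The authors' deposited table gave −0.14 (adjusted p = 0.0312).

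Relative to its adaptor, the receptor was lower in every knockout-labelled library. The ratio of Trem2 to Tyrobp TPM was 0.386, 0.391 and 0.375 in the knockout-labelled libraries and 0.462, 0.511 and 0.520 in control libraries. The ratios did not overlap between groups, and the mean log2 ratio differed by −0.37. An exact two-sided permutation test of the 6 libraries gave p = 0.1, which is the smallest p that 3 against 3 libraries allow.

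Hcst, the gene of the adaptor DAP10, lies 132 bases beyond the 3′ end of Tyrobp on the opposite strand of chromosome 7, and it is named here because of that position, after its values were seen. It measured 9.22, 7.91 and 9.86 TPM in the knockout-labelled libraries and 5.10, 4.39 and 6.23 TPM in control libraries. Hcst rose, with a log2 fold change of 0.69 (SE 0.112, limma adjusted p = 0.000735). The neighbouring adaptor genes thus had fold changes of opposite sign, although only that of Hcst passed. The 878 tested genes of chromosome 7 had a median log2 fold change of 0.24, against 0.02 over all genes, and 59.2% of them were called higher. Tyrobp lay below that median and Hcst above it, and the part of the chromosome in either value was not tested.

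**Figure D3:**
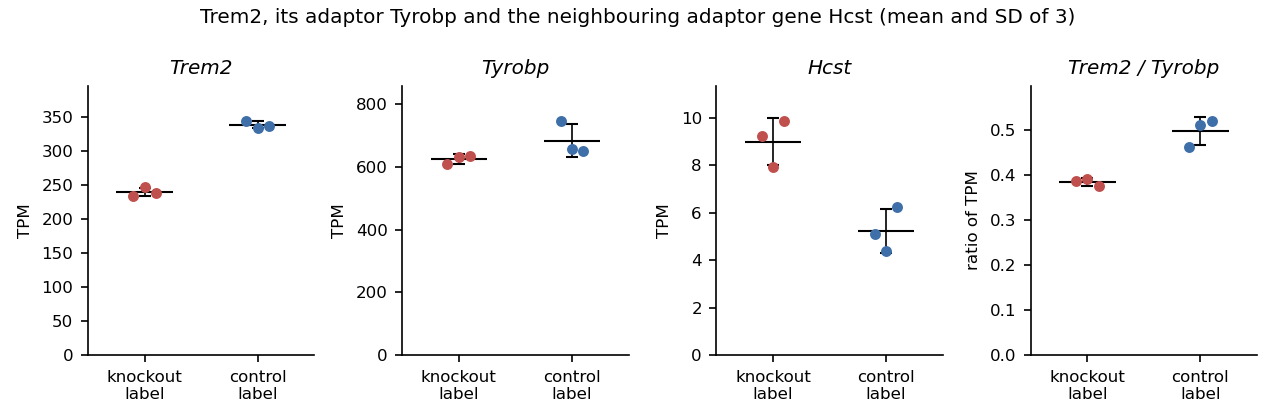
TPM of Trem2, Tyrobp and Hcst and the ratio of Trem2 to Tyrobp TPM in each library (points), with the mean and SD of 3 libraries, on axes that start at 0; libraries labelled knockout are left of controls. The ratio is 0.375 to 0.391 under the knockout label and 0.462 to 0.520 in control libraries, while Hcst is higher under the knockout label.

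The tested genes whose profile over the 6 libraries was most like that of Trem2 were Dapp1, Ciao2a and Ctsl. Likeness was the root mean square difference of log2(TPM + 1) from the control mean, over 8584 genes with a mean of at least 5 TPM. It was 0.0251, 0.0253 and 0.0276 on the log2 scale for these 3 genes. Dapp1, an adaptor that binds phosphoinositides, measured 8.38 ± 0.159 and 12.4 ± 0.266 TPM in the knockout-labelled libraries and the controls (SD, n = 3 each). Ctsl, the lysosomal protease cathepsin L, measured 137 ± 2.81 TPM under the knockout label and 193 ± 3.92 TPM in control libraries. With 2 groups, this likeness depends mainly on the size of the fold change.

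Mertk was the only receptor kinase of the TAM family that passed the filter. It lies on the plus strand of chromosome 2 (128698915 to 128803007, mm10). Mertk measured 10.6, 10.4 and 12.0 TPM in the knockout-labelled libraries and 9.61, 10.3 and 9.12 TPM in control libraries. The groups were separated by a narrow gap, between 10.4 TPM under the knockout label and 10.3 TPM in a control. It did not pass the test (log2 fold change 0.17, 95% interval 0.02 to 0.32, limma adjusted p = 0.0654). It passed with limma-voom on recovered reads (0.16, adjusted p = 0.0281). Leaving out control replicate 2 also brought it past the threshold (0.21, adjusted p = 0.0447), while without knockout-labelled replicate 3 it was 0.11 (adjusted p = 0.225).

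Axl was barely detected. It had 1 read in 1 of the 3 knockout-labelled libraries, 1 read in 1 of the 3 controls and 0 in the rest, and a count of 0 allows up to 0.0374 to 0.0474 TPM at these depths (3 reads, counting error only). No fold change is given for it. Gas6, the bridging ligand of MERTK and AXL, measured 0.252, 0.323 and 0.262 TPM in the knockout-labelled libraries and 0.0740, 0.128 and 0.205 TPM in control libraries, from 35 and 15 recovered reads in all. The groups did not overlap, and Gas6 was below the filter in every library. The authors' deposited table gave it 1.05 on the log2 scale with an adjusted p of 0.209.

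Mrc1 and Marco, both cell-surface receptors of tissue macrophages, did not pass the filter either and differed in opposite directions. Mrc1 encodes the mannose receptor CD206, a C-type lectin used as a marker of alternative activation. It measured 0.810, 0.686 and 1.01 TPM in the knockout-labelled libraries and 0.312, 0.337 and 0.314 TPM in control libraries, from 214 and 75 recovered reads in all. Every knockout-labelled value was more than 2 times the highest control value, and the ratio of means was 2.60. The authors' deposited table gave Mrc1 a log2 fold change of 1.36 (adjusted p = 1.12e-05). Marco, a class A scavenger receptor for bacteria and particles, measured 0.0680, 0 and 0.0970 TPM in the knockout-labelled libraries and 0.200, 0.381 and 0.277 TPM in control libraries, from 5 and 24 recovered reads in all. The authors' deposited table gave Marco −2.41 (adjusted p = 0.0322), where 22.1% of its 24421 symbols had an adjusted p under 0.05.

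Other scavenger receptors moved both ways. Of 16 genes listed, 7 were tested, and 5 fell and 2 rose, where 23.4% of all tested genes were called lower and 26.7% higher, with a median log2 fold change of −0.28. This and the other related lists were chosen with earlier results of these data known, so their counts are not tests. Stab1, which encodes the scavenger and clearance receptor stabilin-1, measured 9.03, 7.58 and 7.95 TPM in the knockout-labelled libraries and 15.2, 15.6 and 14.9 TPM in control libraries (log2 fold change −0.82, limma adjusted p = 8.12e-06). Colec12, a collectin-type scavenger receptor, and Scarf2 fell by 0.32 and 0.30 on the log2 scale. The 2 that rose were Ssc5d, a secreted cysteine-rich scavenger protein gene (0.76), and Cxcl16, whose product is a chemokine that also binds oxidised lipoprotein (0.29). The 9 not tested, among them Cd36, stayed at or below 0.521 TPM, and Cd163 and Olr1 were listed at 0.

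**Figure D4:**
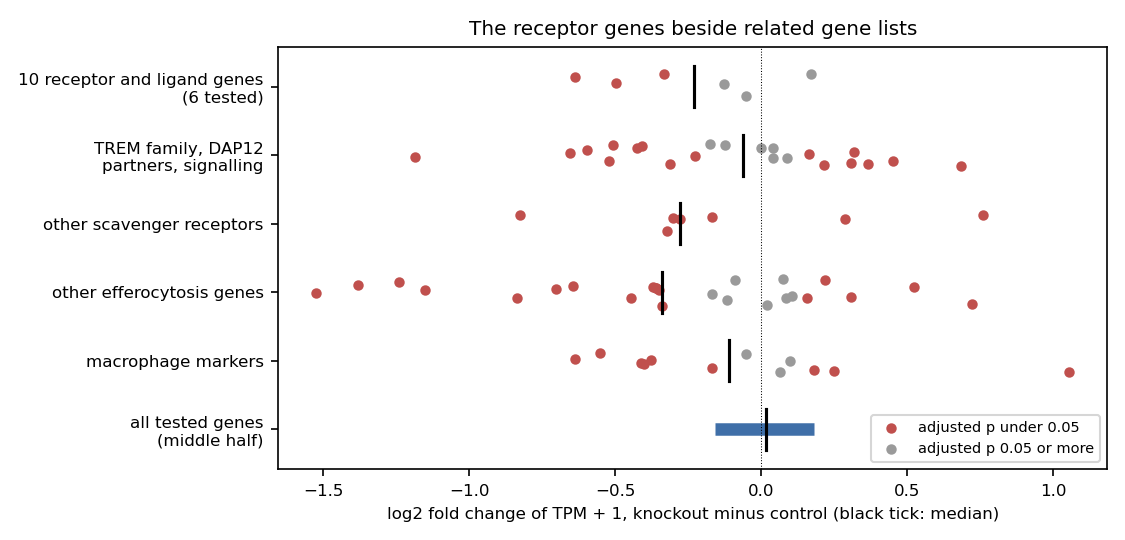
Log2 fold change of TPM + 1, knockout minus control, of each tested gene (points, spread vertically only to separate them) for the receptor and ligand genes, 3 related lists and macrophage markers; red points passed at an adjusted p under 0.05, black ticks are medians, and the blue bar is the interquartile range of all tested genes. Medians were −0.28 for the other scavenger receptors, −0.34 for the efferocytosis list and −0.06 for the TREM and DAP12 list, against 0.02 over all genes.

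Genes of the TREM family and of signalling through DAP12 moved both ways. Of 25 listed, 22 were tested, with 9 lower, 7 higher and 6 that did not pass, beside 50.1% called over all tested genes, and a median log2 fold change of −0.06. Trem1, which encodes an activating DAP12-coupled receptor of the same chromosome 17 cluster as Trem2, measured 1.10, 0.984 and 1.16 TPM in the knockout-labelled libraries and 3.54, 4.02 and 3.65 TPM in control libraries (log2 fold change −1.19, limma adjusted p = 5.32e-06). It was thus far less abundant than Trem2 in both groups. Ptpn6, the phosphatase SHP-1 that restrains ITAM signalling, fell to 184 ± 4.74 TPM under the knockout label, against 263 ± 11.7 TPM in control libraries (SD, n = 3 each). Cd300lb, a DAP12-coupled receptor gene, fell by 0.65 on the log2 scale. Syk, the kinase that DAP12 recruits, fell by 0.41 (limma adjusted p = 0.000857) and is named for that role, after its values were seen. Among the genes that rose were Lcp2, the adaptor SLP-76 (0.45), Adam17, a sheddase that can cleave TREM2 (0.37), and Clec5a, a DAP12-coupled lectin (0.31). Adam10, the other sheddase gene listed, had a log2 fold change of −0.31 (limma adjusted p = 0.00327). It is named beside Adam17, after its values were seen.

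Of the efferocytosis genes listed outside the 10, more were called lower than higher. The smallest adjusted p-values were those of the complement C1q genes, whose products coat dying cells. Of 35 listed, 25 were tested, with 13 lower, 5 higher and 7 that did not pass, beside 23.4% called lower and 26.7% higher over all tested genes, and a median log2 fold change of −0.34. The list was chosen with earlier results of these data known, so its count beside the background is not a test of efferocytosis genes. C1qc measured 104, 98.9 and 102 TPM in the knockout-labelled libraries and 319, 279 and 286 TPM in control libraries. C1qc, C1qa and C1qb had log2 fold changes of −1.52, −1.24 and −1.15, and they lie together on chromosome 4. The 3 named genes that rose were P2ry2, a receptor for nucleotides released by dying cells (0.72), Dock1, an exchange factor for the engulfment GTPase Rac1 (0.52), and Anxa5, a phosphatidylserine-binding annexin (0.31). Tyro3, the remaining TAM receptor, and Pros1, which encodes protein S, were among the 10 not tested. Tyro3 was at 0.0490, 0.0450 and 0.108 TPM in the knockout-labelled libraries and 0.0480, 0.0670 and 0.114 TPM in control libraries, and these values overlapped. Of the 14 genes of the 3 lists that rose, 4 lie on chromosome 7 (Ssc5d, Hcst, Dock1 and P2ry2), against 1 of the 27 that fell (Mfge8), and the part of the chromosome was not tested. Over all tested genes, 520 of the 3002 called higher and 73 of the 2637 called lower lie on chromosome 7. On that chromosome 59.2% of tested genes were called higher and 8.31% lower, against 23.9% and 24.7% elsewhere in the genome.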

How the data were processed

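Polyadenylated RNA of 3 libraries labelled knockout and 3 controls was sequenced with an NEBNext Ultra kit, per the labels' protocols. Per the submitters' processing notes, the tools were STAR 2.7.5a, bcl2fastq, DESeq2 and HOMER 4.11.1 on build mm10, in an unstated order. The authors deposited TPM values for 25124 symbols, each with 1 RefSeq transcript and summing to 551257 to 556083 per library, below the total TPM has by definition, and a second table of log2 values per library with a log2 fold change, p-value and adjusted p-value per gene, per the file headers. Its header reads WT vs. TG; its fold changes have the sign of the KO minus WT columns in 100% of its 5398 genes with an adjusted p under 0.05. The sources used here do not say how reads of paralogs or of opposite strands were assigned.

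Genes with at least 1 TPM in at least 3 of 6 libraries were compared on log2(TPM + 1), which understates changes of low genes, in R 4.3.3 by limma 3.58.1 with its trend option (two-sided, Benjamini-Hochberg over all 11257 genes, adjusted p under 0.05). The fit was tested on simulated data. Reads were recovered as TPM times length over the value of 1 read in that library, which came within 0.1 of a whole number for 100% of values checked (20% by chance). Replicates differed by 1.78 to 5.73 chi-square per degree of freedom, more than counting error alone gives. All 6 were counted as libraries, though this does not show that they were grown apart. Named genes were the 10 members, Nfil3, up to 3 genes per direction with the smallest adjusted p under 0.05 from each related list, and the 3 nearest to Trem2. Members and lists were chosen with earlier results of these data known. Alternatives were pseudocount, filter, scaling, deposited log2 values, limma-voom, replicate block and leaving out each library.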

Additional observations from a re-analysis of the deposited data

How the results depend on the processing

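Msr1, Trem2 and Cd68 stayed lower and past the threshold under all 14 alternatives, with log2 fold changes of −0.68 to −0.58, −0.52 to −0.47 and −0.39 to −0.27. Scarb1 passed under 0 of 14 (adjusted p 0.127 to 0.472). Tyrobp and Mertk kept their direction in all 14 and each passed in 3. On the deposited log2 values they were −0.13 (adjusted p = 0.0260) and 0.14 (adjusted p = 0.0282), and with limma-voom on recovered reads −0.15 (adjusted p = 0.0148) and 0.16 (adjusted p = 0.0281). With a library left out, Tyrobp ranged from −0.16 to −0.064 and Mertk from 0.11 to 0.21; Tyrobp passed without control replicate 3 and Mertk without control replicate 2. The count of the 10 genes called higher, 0, became 1 on the deposited log2 values, 1 with limma-voom, 0 to 1 with a library left out, and 2 with no filter on low values. Those 2 were Mrc1 (0.47, adjusted p = 0.00327) and Gas6 (0.17, adjusted p = 0.0413), and Marco was called lower there (−0.28, adjusted p = 0.0135). Over all genes tested with no filter, 2742 of 19482 were called higher and 2521 lower. Higher calls over all genes were 2984 of 10740 on the deposited log2 values and 3024 of 11257 with limma-voom. With a library left out they were 2478 to 2910 of 11257. At a TPM minimum of 5, Ssc5d left the test and 1 other scavenger receptor was called higher.

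Same-numbered libraries had correlations of deviations of −0.01, −0.06 and 0.00, so no shared deviation was seen and the main fit used no pairs. Such correlations cannot show if same-numbered libraries were prepared together. With replicate number as a block, 2794 genes were called higher and 2503 lower, against 3002 and 2637, and no call among the 10 genes changed. No alternative moved the median of all genes by more than 0.02. The planned ratio of Axl to Mertk was not computed, since Axl was listed at 0 in 4 libraries. Marco, Axl and Gas6 rest on 35 reads or fewer per group, which limits any statement on them.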
